A study of Mus musculus with 6 samples.

Results

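The genes described here encode the enzymes and the mitochondrial carrier through which the liver breaks down amino acids and turns the freed nitrogen into urea. They are 46 named genes, taken by symbol as a list, out of 49212 genes counted in the liver libraries of the series. All 46 were counted and all 46 entered the test of 15126 genes. The list was sorted by amino acid into 10 groups: the urea cycle, phenylalanine and tyrosine, tryptophan, histidine, proline and ornithine, serine and glycine, methionine and homocysteine, cysteine to taurine, the branched-chain amino acids, and alanine, aspartate and glutamine.

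The study asked how androgen acts on the hepatic clock and on fatty liver in a mouse model of polycystic ovary syndrome. Liver of C57BL/6J mice aged 15 weeks was sampled in 3 placebo libraries and in 3 libraries labelled as PCOS mice with a pellet of DHT (dihydrotestosterone), here placebo 1 to 3 and DHT 1 to 3. The labels give no other allele or agent, no pellet dose or duration, no sex, no collection time and no sequencing batch, and do not say that each library is a separate animal. P-values therefore measure the spread between these libraries, which may be technical.

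Amino acids lose their nitrogen by transamination or deamination, and periportal hepatocytes convert the resulting ammonia to urea through carbamoyl phosphate, citrulline, argininosuccinate and arginine. The carbon skeletons pass into the citric acid cycle, ketogenesis or gluconeogenesis. Several of the first enzymes, among them those coded by Tat, Tdo2 and Sds, are textbook targets of glucocorticoid and glucagon, and the methionine cycle supplies the methyl groups used in many reactions of the hepatocyte.

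Total counts were between 41336844 and 60209462 per library, in 5 of the 6 above the number of reads that the labels give per sample. Placebo 3 stood apart from placebo 1 and 2, and the count of genes called among all genes was 250 with the 6 libraries and 862 without placebo 3. The hepatocyte marker list, with Alb as its defining gene, took 8.26 to 13.1% of transcript abundance (TPM, counts per exon length scaled to a common total) in placebo and 7.95 to 9.79% in DHT libraries. Of these 7 markers 6 had a negative log2 fold change, with a median of −0.57, and Alb had 84695 ± 14733 against 60381 ± 7868 CPM (counts scaled to a common library total, SD, n = 3 each, edgeR adjusted p = 0.414); the part of this in the values of the list was not tested. Y-linked transcripts were present only in the DHT libraries at more than trace level: the summed TPM of 4 Y-linked genes was 0.0466 to 0.0806 in placebo and 61.0 to 64.7 in DHT. Every difference described here runs along the same 3 against 3 libraries, so the treatment label and the Y signal cannot be told apart. Clock genes also moved, with 3 of 12 called higher and 4 lower, among them Dbp (90.6 ± 15.3 against 29.3 ± 1.52 CPM, SD, n = 3 each) and Per1 (20.9 ± 4.57 against 2.89 ± 1.68 CPM). Their part in the results was not tested. In the lists for other cells, Gzma of the lymphocyte list was called lower (1 of 7 tested, summed TPM 6.73 to 14.8 in placebo and 4.99 to 5.85 in DHT) and Cfd of the adipocyte list was called higher (1 of 1 tested), while Lep had 0 counts and Adipoq at most 0.0411 CPM. No gene of the stellate, Kupffer, sinusoidal endothelial and cholangiocyte lists (8 tested in each), of the erythroid (6), neutrophil (3) and pancreatic acinar (1) lists, or of the hepatocyte list (7) was called. With the replicate number as a block, Krt19 of the cholangiocyte list and Gpr182 of the endothelial list were called lower and Alas2 of the erythroid list higher (edgeR adjusted p = 0.00833, 0.0386 and 2.69e-05, highest over the alternatives 0.325, 0.644 and 0.176). The cholangiocyte genes Krt19, Krt7, Epcam and Cldn7, 4 of 8 (10.9% of all genes), were lower in every DHT library at 0.393 to 4.35 CPM. Summed TPM of that list was 87.6 to 102 in placebo and 64.1 to 136 in DHT. The part of these genes in the results was not tested. In bulk tissue, fewer cells of a type and less RNA per cell cannot be told apart.

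No gene of amino acid breakdown was called at an adjusted p under 0.05 by edgeR, and the direction of the differences was mixed. Cps1, Ass1, Asl and Arg1 of the urea cycle, Sds of serine, Agxt of glyoxylate and Gnmt of the methionine cycle had lower levels in every DHT library than in any placebo library, although for Arg1 this held with TMM scaling and not on library size alone. Gldc and Amt of the glycine cleavage system, Kynu of the kynurenine pathway and Bhmt of homocysteine remethylation had higher levels in every DHT library. Gcsh and Dld, further parts of the glycine cleavage system outside the list, overlapped, with log2 fold changes of −0.63 ± 0.35 and −0.03 ± 0.33 (SE). The sign of Dld turned in 6 of 16 alternatives. The log2 fold changes (DHT minus placebo) ran from −1.52 for Sds to 1.50 for Gldc, with a median of −0.31 over the 46 genes and −0.02 over all genes tested.

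By edgeR's quasi-likelihood test with Benjamini-Hochberg adjustment, 0 of the 46 genes passed, where 1.65% of all genes passed, and the lowest adjusted p was 0.0775. At an unadjusted p under 0.05 there were 16 (15.9% of all genes), 12 lower genes (8.52% of all genes) and 4 higher ones (7.40%). The groups did not overlap in 14 genes that were lower (10.9% of all genes) and in 4 that were higher (12.7%), 18 in all (23.6%). With the replicate number as a block, a pairing that the labels do not give, 9 were called (10.7% of all genes), 7 lower (5.28%) and 2 higher (5.44%). DESeq2 called 6 (7.02% of all genes), 2 higher (3.29%) and 4 lower (3.73%). Limma voom called Kynu and Gldc higher (4.67% of all genes, 2.43% higher), as did edgeR on library size alone (1.96%, 1.37% higher). Gldc alone was called with no low-count filter (1.97% of all genes, 1.09% higher) and without both libraries numbered 3 (2.95%, 1.75% higher). Without placebo 3, 5 were called (5.54% of all genes), Tat and Agxt lower (2.81%) and Kynu, Gldc and Amt higher (2.73%). Without placebo 1, placebo 2, DHT 1, DHT 2 or DHT 3, 0 were called, where 0.607, 0.671, 0.609, 0.539 and 1.06% of all genes were. DESeq2 size factors, leaving out the 20 most counted and the mitochondrial genes, a minimum of 1 CPM and a fit that is not robust also called 0 (1.64, 1.63, 1.67 and 1.73% of all genes). Of the 46 genes, 11 were called in at least 1 alternative and 35 in none.

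Scaling moved the balance of directions. With trimmed mean of M-values (TMM) scaling, 33 of the 46 genes had a negative log2 fold change (51.9% of all genes), and with library size alone 26 did. The median over all genes moved from −0.02 to 0.17 between these scalings and that of the 46 genes from −0.31 to −0.12, so the list lay below all genes on both. On library size alone the groups did not overlap in 9 lower genes (6.27% of all genes) and 5 higher ones (21.1%). Arg1, Hpd, Hal, Aldh4a1 and Gls2 overlapped there, and Kmo was then higher in all DHT libraries.

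**Figure D1:**
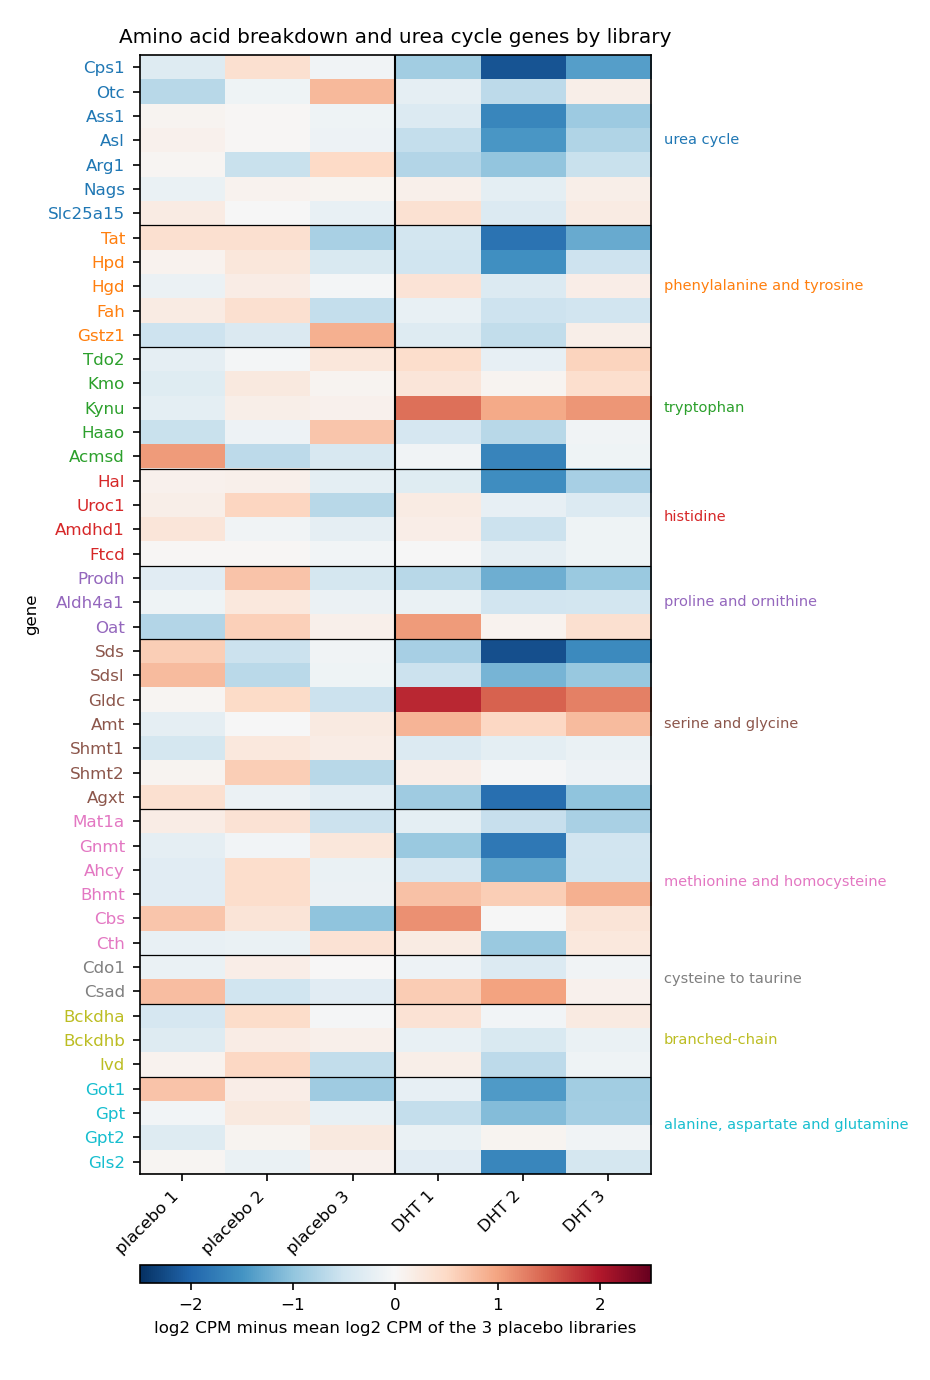
Each row is 1 gene and each column 1 library, and the colour is the log2 CPM minus the mean log2 CPM of the 3 placebo libraries. Blue cells in Cps1, Sds, Agxt and Gnmt and red cells in Kynu, Gldc, Amt and Bhmt run through DHT 1, 2 and 3, and DHT 2 is the palest red or deepest blue of the DHT columns in most rows.

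DHT 2 had the lowest level among the DHT libraries in 39 of the 46 genes (84.8%), where it was the lowest in 30.2% of all genes tested. It was the lowest of all 6 libraries in 29 of the 46 (63.0%, against 11.1% of all genes). DHT 2 was also lowest in 39 genes on library size alone. Mitochondrial genes took 6.83, 4.83 and 3.23% of counts in placebo 1 to 3 and 6.44, 8.47 and 8% in DHT 1 to 3. The highest share was in DHT 2 and the lowest in placebo 3. With the 20 most counted and the mitochondrial genes left out of the fit, the median log2 fold change of the 46 genes was −0.32, with 33 negative. With all genes in the fit these were −0.31 and 33. Any part of the mitochondrial share in the low levels of DHT 2 was not tested. Without DHT 2 the groups did not overlap in 14 lower genes (13.5% of all genes) and in 8 higher ones (15.1%). The median log2 fold change of the 46 genes was −0.20 without DHT 2 and −0.34 without DHT 1. The spread within the DHT group was wide in the most counted genes: Cps1 was at 2352, 964 and 1659 CPM in DHT 1, 2 and 3, and Ass1 at 4139, 1675 and 2763 CPM.

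**Figure D2:**
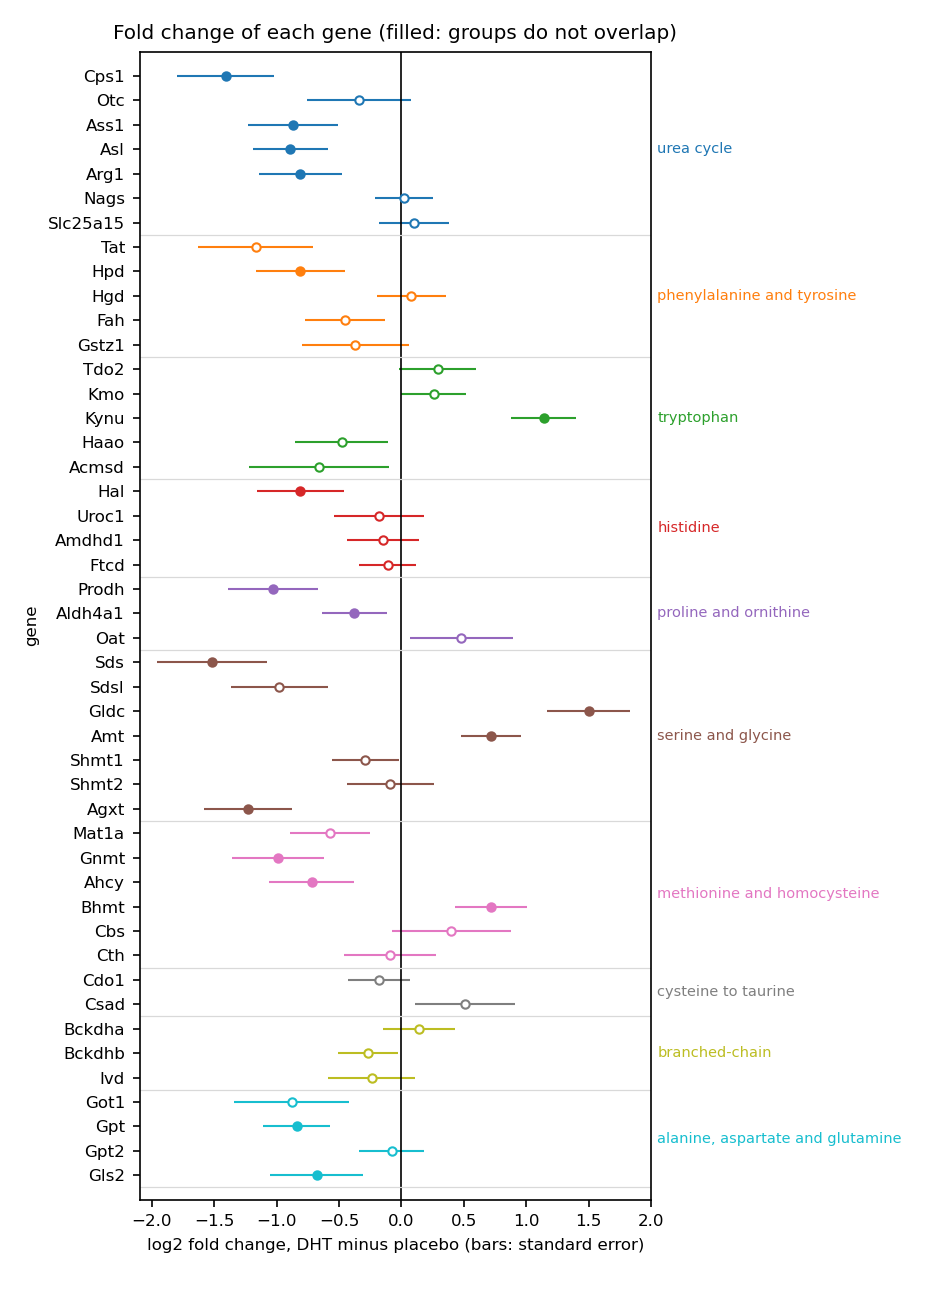
The horizontal axis is the log2 fold change, DHT minus placebo, with 1 gene per row and bars for the standard error. Filled points are genes whose groups do not overlap. They lie between −1.52 (Sds) and −0.38 (Aldh4a1) on the left and between 0.72 (Amt and Bhmt) and 1.50 (Gldc) on the right.

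The 250 bases before the RefSeq start site (GRCm38.p6) were found for 35 of the 46 genes, in 39 windows. Windows of 4 genes are shown, 5′ to 3′ in the direction of the gene, because they set a gene with a higher mean in DHT libraries (Gldc, glycine cleavage) beside 3 with a lower mean (Gnmt, glycine methylation, and Hal and Tat, the first steps of histidine and tyrosine breakdown). They lie at chr19:30175442-30175691 (minus strand), chr17:46729166-46729415 (minus), chr10:93488518-93488767 (plus) and chr8:109990186-109990435 (plus). Capitals mark letters that match a searched motif on either strand. The CCAAT box was searched by the letters of its name and the GC box as GGGCGG. The TATA box was searched as TATAAA. The site of C/EBP factors was searched as TTGCNNAA.
Gldc: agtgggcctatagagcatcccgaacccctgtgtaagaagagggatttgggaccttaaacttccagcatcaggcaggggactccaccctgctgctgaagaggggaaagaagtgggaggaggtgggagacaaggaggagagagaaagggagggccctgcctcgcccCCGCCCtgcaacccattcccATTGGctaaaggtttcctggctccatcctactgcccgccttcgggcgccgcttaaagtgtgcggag
Gnmt: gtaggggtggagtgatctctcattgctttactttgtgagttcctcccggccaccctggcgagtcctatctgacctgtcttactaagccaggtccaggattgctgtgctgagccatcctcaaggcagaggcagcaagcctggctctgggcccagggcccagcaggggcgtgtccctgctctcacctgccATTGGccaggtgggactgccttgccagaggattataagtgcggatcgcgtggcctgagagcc
Hal: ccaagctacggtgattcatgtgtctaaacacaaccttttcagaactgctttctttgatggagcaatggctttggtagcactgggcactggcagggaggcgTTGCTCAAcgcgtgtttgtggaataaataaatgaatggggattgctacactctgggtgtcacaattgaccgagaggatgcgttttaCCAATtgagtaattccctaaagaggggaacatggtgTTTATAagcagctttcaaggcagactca
Tat: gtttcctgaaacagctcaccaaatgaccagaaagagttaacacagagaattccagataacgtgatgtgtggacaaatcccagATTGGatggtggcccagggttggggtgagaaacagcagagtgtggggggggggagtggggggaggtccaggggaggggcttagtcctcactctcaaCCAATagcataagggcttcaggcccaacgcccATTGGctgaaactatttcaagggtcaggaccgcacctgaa
All 4 windows held a CCAAT box, so the match was found in a higher gene and in lower ones, and Tat held 3. A GC box was in the window of Gldc, and a TATA box and a C/EBP site in that of Hal. Over the list, the CCAAT box was in 20 of the 39 windows (33.8% of 32851 windows of all genes), the GC box in 17 (32.7%), the TATA box in 4 (12.4%) and the C/EBP site in 2, those of Hal and Hgd (9.56%). The E-box CACGTG, the element bound by the clock factors BMAL1 and CLOCK, was in 3 windows (Ass1, Cbs and Slc25a15, 6.02% of all windows), and the D-box TTATGNAA in that of Otc (3.07%). The HNF4 letters CAAAGTCCA (0.384% of all windows) and the palindromic steroid receptor element (0.00913%) were in 0 of the 39. No searched motifs overlapped in the windows shown. A match is a string of letters and not a measured binding site.

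Among urea cycle genes, 4 of the 5 cycle enzymes had lower TMM-scaled levels in all DHT libraries (10.9% of all genes). Of them 3, Cps1, Ass1 and Asl, also did on library size alone (6.27% of all genes). None of the cycle genes was called by edgeR without the block. Cps1 (chromosome 1, 67123026 to 67231259), which makes carbamoyl phosphate and is the entry step, was at 3438, 5698 and 4055 CPM in placebo 1 to 3 and at 2352, 964 and 1659 CPM in DHT 1 to 3. Its groups did not overlap, and the log2 fold change was −1.41 ± 0.39 (SE), or 2.65-fold lower (edgeR adjusted p = 0.139). It was called by DESeq2 and by edgeR with the replicate number as a block (edgeR adjusted p = 0.00834, range over 16 alternatives 0.00834 to 0.402).

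Ass1, argininosuccinate synthase (chromosome 2, 31470207 to 31520672), had 5489, 5351 and 4823 CPM in placebo and 4139, 1675 and 2763 CPM in DHT. The placebo libraries lay close together, and the DHT libraries were spread more widely, all of them lower. The log2 fold change was −0.87 ± 0.36 (edgeR adjusted p = 0.291). Asl (chromosome 5, 130011258 to 130029247), which splits argininosuccinate, had 905, 865 and 771 against 557, 308 and 504 CPM, without overlap (−0.89 ± 0.30, edgeR adjusted p = 0.209).

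Arg1, the arginase that releases urea (chromosome 10, 24915208 to 24927470), had 2254, 1479 and 3089 CPM in placebo and 1313, 1095 and 1478 CPM in DHT. Its groups met almost at 1 value, 1479 CPM in placebo 2 and 1478 CPM in DHT 3, and overlapped on library size alone, where these were at 1365 and 1599 CPM (−0.81 ± 0.33, edgeR adjusted p = 0.289). Otc, the ornithine transcarbamylase between Cps1 and Ass1 and an X-linked gene, overlapped, at 428, 638 and 1207 CPM in placebo and 591, 439 and 766 CPM in DHT (−0.34 ± 0.42). Its sign turned to 0.16 without placebo 3. Nags, which makes the obligatory activator of the Cps1 enzyme, was at 51.2 to 67.1 CPM over all 6 libraries, and Slc25a15, the mitochondrial ornithine carrier, at 241 to 395 CPM (log2 fold changes 0.02 ± 0.23 and 0.10 ± 0.28). Summed over the 7 genes, TPM was 9330, 9770 and 9313 in placebo 1 to 3 and 7807, 4254 and 6088 in DHT 1 to 3, so every DHT library was below every placebo library.

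Of the 5 tyrosine genes, Hpd alone had groups that did not overlap with TMM scaling (23.6% of all genes), and 4 had a negative log2 fold change. Tat, tyrosine aminotransferase (chromosome 8, 109990437 to 109999803), had 2039, 2037 and 873 CPM in placebo and 1118, 429.9 and 645 CPM in DHT. Placebo 3 lay below DHT 1, so the groups overlapped (−1.17 ± 0.46, edgeR adjusted p = 0.271). It was called with the block (edgeR adjusted p = 0.0247, range over 16 alternatives 0.0247 to 0.637) and without placebo 3.

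Hpd, the dioxygenase that follows, had 3079.6, 3553 and 2247 CPM in placebo and 2052, 1000.0 and 2020.3 CPM in DHT, without overlap (−0.81 ± 0.36, edgeR adjusted p = 0.320). Hgd, which opens the homogentisate ring, was at 489 to 784 CPM over the 6 libraries (0.08 ± 0.28). Fah, the last enzyme of the pathway, was at 477 to 945 CPM (−0.45 ± 0.32), and Gstz1, the maleylacetoacetate isomerase, was at 604 to 1033 CPM except for placebo 3 with 1713 CPM (−0.37 ± 0.43, and 0.21 without placebo 3).

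Tryptophan breakdown had its clearest difference in the middle of the kynurenine pathway. Kynu, kynureninase (chromosome 2, 43555329 to 43682715), had 90.3, 119 and 115 CPM in placebo and 278, 208 and 231 CPM in DHT. All DHT libraries were above all placebo libraries, and the mean was 108 ± 15.4 against 239 ± 35.8 CPM (SD, n = 3 each). The log2 fold change was 1.14 ± 0.26, 2.21-fold higher, with an edgeR adjusted p of 0.0775. It passed in 5 of 16 alternatives: the block (edgeR adjusted p = 0.00503, range over the alternatives 0.00164 to 0.340), library size alone, DESeq2, limma voom and the fit without placebo 3.

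Tdo2, the rate-limiting dioxygenase of hepatic tryptophan use, was at 1091, 1239.6 and 1559 CPM in placebo and 1737, 1111 and 1898 CPM in DHT, with overlap (0.29 ± 0.31). Kmo, the hydroxylase before kynureninase, ran from 233 to 387 CPM (0.26 ± 0.26). Haao, which follows it on the way to quinolinate and NAD, had 423, 575 and 1005 CPM in placebo and 465, 386 and 585 CPM in DHT (−0.48 ± 0.37). Acmsd, which diverts that route away from NAD, was the lowest of the list per length, and placebo 1 (54.3 CPM) stood above the other 5 libraries (8.26 to 24.7 CPM). None of these 4 genes had groups apart, and the log2 fold change of Acmsd ran from −0.97 to 0.05 when 1 library was left out.

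Of 4 histidine genes, Hal differed most. Hal, histidine ammonia-lyase and the first step (chromosome 10, 93488768 to 93519304), had 524, 533 and 410.4 CPM in placebo and 395, 165 and 274 CPM in DHT. The groups did not overlap, with placebo 3 and DHT 1 nearest to each other (−0.81 ± 0.35, edgeR adjusted p = 0.311). Uroc1, Amdhd1 and Ftcd, the 3 following steps, overlapped, with log2 fold changes of −0.18 ± 0.36, −0.15 ± 0.29 and −0.11 ± 0.23. All 4 were negative with TMM and 1 was on library size alone. Ftcd had the smallest spread, 286 to 306 CPM in placebo and 255 to 297 CPM in DHT.

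For proline, Prodh, the mitochondrial proline dehydrogenase (chromosome 16, 18060357 to 18090203), had 194, 386 and 174 CPM in placebo and 145, 101 and 124 CPM in DHT. Placebo 2 was high, and the groups stayed apart (−1.03 ± 0.36, edgeR adjusted p = 0.228). It passed with the block alone (edgeR adjusted p = 0.0394, range over 16 alternatives 0.0394 to 0.588). Aldh4a1, the next enzyme, had 321, 418 and 312 against 308, 249 and 252 CPM (−0.38 ± 0.26, edgeR adjusted p = 0.502). Oat, the pericentral ornithine aminotransferase, had a higher mean in DHT libraries, and its groups overlapped in part, from 456 to 1144 CPM in placebo and 809 to 1580.4 CPM in DHT (0.48 ± 0.41).

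Serine and glycine genes held the largest differences in both directions. Sds, serine dehydratase (chromosome 5, 120476526 to 120483932), which makes pyruvate from serine, had 424, 191 and 260.1 CPM in placebo and 155, 59.9 and 91.1 CPM in DHT. Every DHT library was below every placebo library, and the mean was 2.86-fold lower (−1.52 ± 0.44, edgeR adjusted p = 0.153). It was called by DESeq2 and with the block, where the edgeR adjusted p was 9.91e-05 (range over 16 alternatives 9.91e-05 to 0.459). Sdsl, a related gene that lies beside it (chromosome 5, 120458186 to 120472810), had a mean of 26.1 TPM in placebo, against 331 for Sds, with 32.1, 11.7 and 17.3 against 12.9, 8.33 and 9.69 CPM. Placebo 2 lay inside the DHT range of Sdsl (−0.98 ± 0.39, edgeR adjusted p = 0.280, with the block 0.0286, range over 16 alternatives 0.0286 to 0.644).

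Agxt, the peroxisomal aminotransferase that turns glyoxylate to glycine (chromosome 1, 93135240 to 93145421), had 555, 377 and 349 CPM in placebo and 226, 113 and 209 CPM in DHT. No DHT library reached the placebo range (−1.23 ± 0.35, edgeR adjusted p = 0.151). It passed in 3 of 16 alternatives, the block (edgeR adjusted p = 0.00345, range 0.00345 to 0.456), DESeq2 and the fit without placebo 3.

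Gldc, the decarboxylase of the glycine cleavage system (chromosome 19, 30098449 to 30175418), had 82.4, 111 and 54.3 CPM in placebo and 291, 219.6 and 189.9 CPM in DHT. All DHT libraries were above all placebo libraries, 2.83-fold in the mean (1.50 ± 0.33, edgeR adjusted p = 0.0776). It passed in 7 of 16 alternatives, more than any other gene of the list, with an edgeR adjusted p of 0.000112 under the block (range 0.000112 to 0.296). Amt, the aminomethyltransferase of the same complex (chromosome 9, 108296853 to 108302302), had 32.8, 38.1 and 44.3 against 69.1, 54.7 and 65.6 CPM, again without overlap (0.72 ± 0.24, edgeR adjusted p = 0.200). Shmt1 and Shmt2, the cytosolic and mitochondrial serine hydroxymethyltransferases, overlapped, at 181 to 294 and 123 to 306 CPM over the 6 libraries (−0.29 ± 0.27 and −0.09 ± 0.35).

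In the methionine cycle, mean transcript levels of Bhmt, of homocysteine remethylation, and of Gnmt, of glycine methylation, differed in opposite directions. Neither gene was called by edgeR without the block. Bhmt, betaine-homocysteine methyltransferase (chromosome 13, 93616891 to 93637961), had 2454, 4069 and 2700.3 CPM in placebo and 4996, 4607 and 5583 CPM in DHT. The highest placebo library stayed below the lowest DHT library (0.72 ± 0.29, edgeR adjusted p = 0.287). Bhmt2 and Mtr, outside the list, also code for enzymes that remethylate homocysteine, and their groups overlapped (−0.16 ± 0.25 and 0.48 ± 0.37). Gnmt, glycine N-methyltransferase (chromosome 17, 46725664 to 46729168), had 2060.4, 2308 and 2923 CPM in placebo and 1264, 699 and 1716 CPM in DHT, without overlap (−0.99 ± 0.37, edgeR adjusted p = 0.249). With the block, Gnmt passed (edgeR adjusted p = 0.0406, range over 16 alternatives 0.0406 to 0.599) and Bhmt did not (edgeR adjusted p = 0.191, range 0.162 to 0.617).

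Mat1a, which makes S-adenosylmethionine, had 4895, 5529 and 2987 against 3648, 2918 and 2465 CPM, and placebo 3 lay inside the DHT range (−0.57 ± 0.32). Ahcy, which hydrolyses S-adenosylhomocysteine, had 1493, 2451 and 1617 against 1361, 732 and 1285 CPM, without overlap (−0.72 ± 0.34, edgeR adjusted p = 0.350). Cbs and Cth, the 2 enzymes that carry homocysteine to cysteine, overlapped (0.40 ± 0.48 and −0.09 ± 0.37). Placebo 3 had the least Cbs, 137 CPM, and the most Cth, 500.1 CPM, of the placebo libraries. Cdo1, which oxidises cysteine, was at 1374 to 1938 CPM in the 6 libraries (−0.18 ± 0.25). Csad, the decarboxylase on the way to taurine, had 209.5, 86.6 and 100.2 CPM in placebo and 189.8, 244 and 132 CPM in DHT (0.51 ± 0.40, edgeR adjusted p = 0.558).

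The branched-chain genes differed least. Bckdhb, a subunit of the branched-chain keto acid dehydrogenase (chromosome 9, 83925145 to 84124240), had 76.7, 109 and 104 CPM in placebo and 83.4, 73.0 and 84.5 CPM in DHT (−0.27 ± 0.24, edgeR adjusted p = 0.619). Bckdha, the other E1 subunit, and Ivd, isovaleryl-CoA dehydrogenase of leucine breakdown, had log2 fold changes of 0.14 ± 0.29 and −0.24 ± 0.35, with overlap in both. Of the transaminase and glutaminase genes, Gpt, the cytosolic alanine aminotransferase (chromosome 15, 76696764 to 76699674), had 418, 519 and 387 CPM in placebo and 290.2, 207 and 244 CPM in DHT. The groups were apart, and Gpt was called by DESeq2 alone (edgeR −0.84 ± 0.27, adjusted p = 0.188, DESeq2 adjusted p = 0.0303, range over 16 alternatives 0.0303 to 0.559). Gpt2, its mitochondrial relative, was at 434 to 644 CPM over all libraries (−0.08 ± 0.26). Gls2, the liver glutaminase, had 535, 463 and 558 against 427, 166 and 379 CPM, without overlap (−0.68 ± 0.37, edgeR adjusted p = 0.402). Got1, the cytosolic aspartate aminotransferase, had 516, 349.6 and 170.1 against 272, 118 and 171 CPM, and placebo 3 lay within the DHT range (−0.88 ± 0.46, edgeR adjusted p = 0.383).

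**Figure D3:**
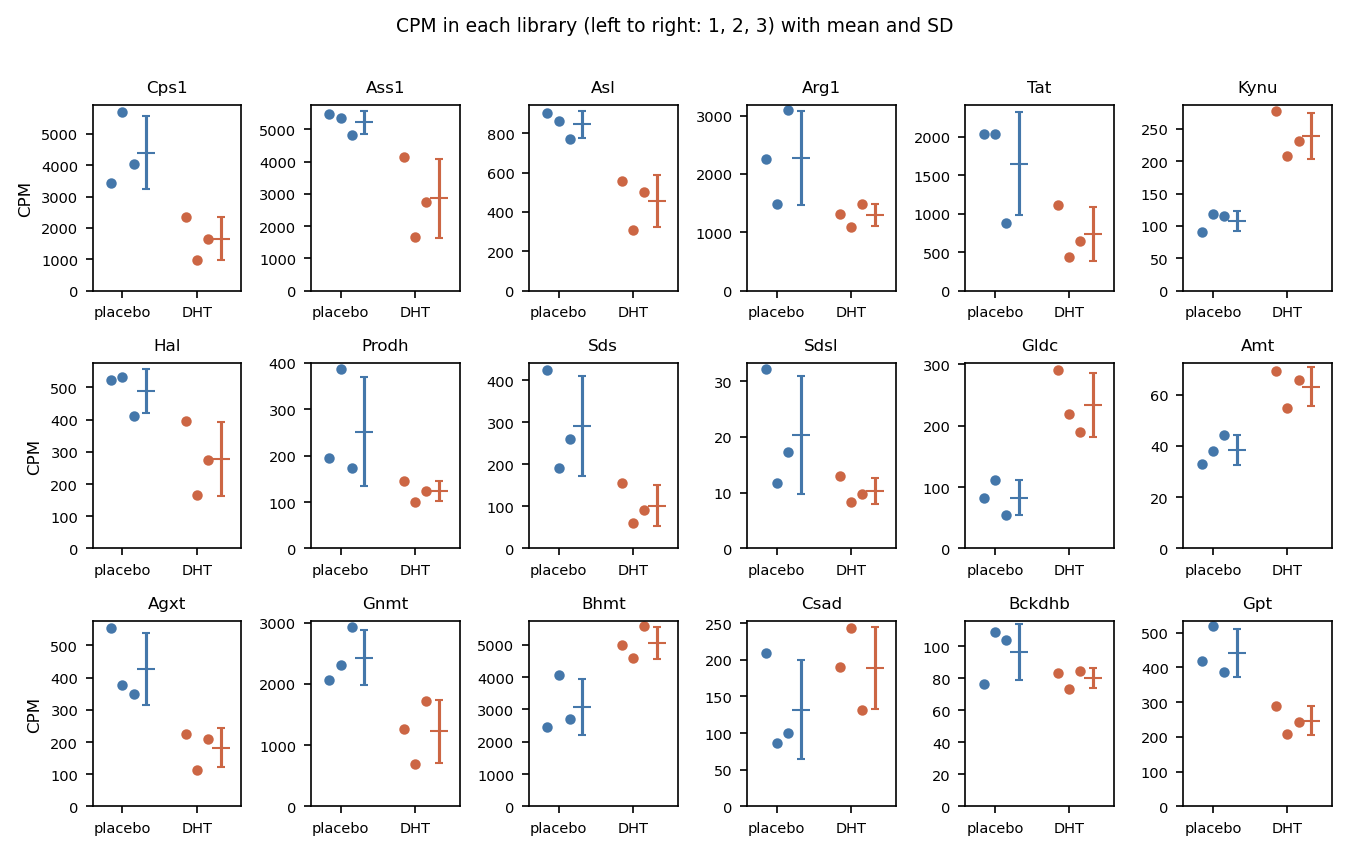
Panels show CPM on axes that start at 0 for the 18 genes given in full, with 1 point per library in the order 1, 2, 3 and the mean with SD beside them. Kynu, Gldc, Amt and Bhmt have all DHT points above all placebo points, and in Tat, Sdsl, Csad and Bckdhb the points of the groups overlap.

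Levels of different genes were compared per length, as TPM from the counts and exon lengths. In placebo the most abundant were Ass1 (4191 TPM), Gnmt (3860), Arg1 (2911), Mat1a (2739.6) and Hpd (2723), and 12 of the 46 genes had a mean of at least 1000 TPM. In DHT the order began with Ass1 (2682), Gnmt (2281), Cdo1 (2262), Mat1a (2132) and Bhmt (2062). Bhmt moved from the 11th to the 5th place and Cps1 from the 7th to the 14th. The lowest were Sdsl and Acmsd, with mean TPM of 26.1 and 20.6 in placebo and 15.6 and 15.1 in DHT. The 46 genes together held 3.24, 3.89 and 3.03% of TPM in placebo 1 to 3 and 3.26, 2.12 and 2.82% in DHT 1 to 3, and these shares overlapped.

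Ratios of 2 genes within a library do not depend on library scaling. For 8 pairs, chosen after the values were seen and given without a test, the groups were apart in 5. For Bhmt to Gnmt, Gldc to Sds and Gldc to Agxt this outcome was fixed beforehand. The first gene of each was already higher, and the second already lower, in every DHT library. Bhmt relative to Gnmt was 0.259, 0.384 and 0.201 in placebo 1 to 3 and 0.860, 1.43 and 0.708 in DHT 1 to 3. Gldc relative to Sds was 0.0878, 0.261 and 0.0942 in placebo and 0.846, 1.65 and 0.941 in DHT, and the ratio of DHT 2 was the highest. Kynu relative to Tdo2 was 0.0466 to 0.0604 in placebo and 0.0768 to 0.118 in DHT, Gldc relative to Agxt 0.0671 to 0.132 and 0.410 to 0.881, and Bhmt relative to Mat1a 0.290 to 0.523 and 0.793 to 1.31. The other 3 pairs overlapped: Oat to Arg1 (0.127 to 0.484 and 0.425 to 0.753), Otc to Cps1 (0.147 to 0.390 and 0.329 to 0.605) and Glul, glutamine synthetase, to Gls2 (0.794 to 2.75 and 2.51 to 9.11).

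**Figure D4:**
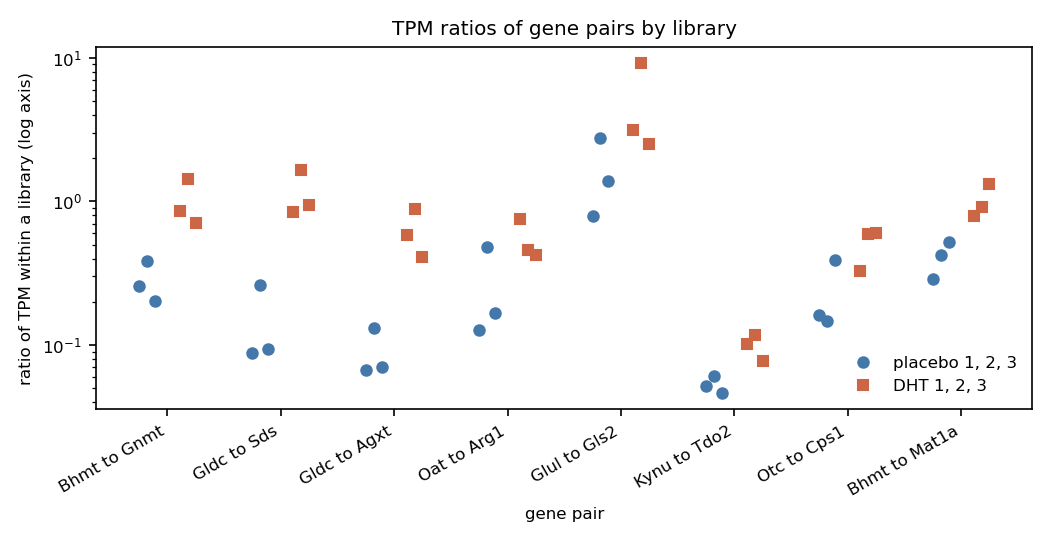
Points are the TPM ratio of a gene pair in 1 library, on a log axis, circles for placebo and squares for DHT. In Bhmt to Gnmt, Gldc to Sds, Gldc to Agxt, Kynu to Tdo2 and Bhmt to Mat1a all DHT squares lie above all placebo circles, and in the other 3 pairs they overlap.

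Further genes of the same routes, amino acid carriers and regulators formed a second list of 103 genes, of which 98 were tested. By edgeR, 1 of the 98 was called higher and 1 lower, where 0.952% and 0.701% of all genes were called. The lower gene was Slc43a1. Slc43a1, a carrier of large neutral amino acids (chromosome 2, 84838850 to 84863594), had 14.0, 17.1 and 10.2 against 3.12, 1.97 and 4.12 CPM. It fell by 2.17 ± 0.36 on the log2 scale (edgeR adjusted p = 0.0259), a call lost without placebo 1, placebo 2, DHT 1 or DHT 2 (highest adjusted p = 0.121).

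The other 6 genes of that list with the smallest p did not pass. Gcat, which splits the product of threonine oxidation to glycine, had 103, 131 and 162 CPM in placebo and 46.9, 45.2 and 62.9 CPM in DHT (−1.35 ± 0.28, edgeR adjusted p = 0.0598). Odc1, which draws ornithine into polyamines, had 94.3, 104 and 118 against 50.0, 48.1 and 56.3 CPM (−1.03 ± 0.23, edgeR adjusted p = 0.0742). Both were apart between the groups and were called with the block (edgeR adjusted p = 0.000333 for Gcat, range over 16 alternatives 0.000333 to 0.282, and 0.00641 for Odc1, range 0.000865 to 0.354). The glutamine carriers Slc38a2 (118 ± 14.5 against 64.7 ± 4.97 CPM) and Slc38a3 (1939 ± 921 against 767 ± 140.4 CPM) were not called by edgeR (adjusted p = 0.128 and 0.178), and Slc38a3 overlapped through placebo 3, at 916 CPM. Of the sulfide-oxidising enzymes, Ethe1 was at 27.2 ± 4.30 against 49.3 ± 1.68 CPM and Sqrdl at 272 ± 44.1 against 150.3 ± 17.3 CPM (SD, n = 3 each), both without overlap (edgeR adjusted p = 0.128 and 0.160). With the block Slc38a2, Slc38a3 and Ethe1 passed (edgeR adjusted p = 0.0285, 0.0169 and 0.0256, ranges over 16 alternatives 0.00650 to 0.469, 0.00832 to 0.498 and 0.0205 to 0.428). With the block, 9 genes of the list were called lower and 3 higher (5.28% and 5.44% of all genes).

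By subgroup, the 13 carriers held 10 negative log2 fold changes with a median of −0.46, and the 4 genes of phenylalanine hydroxylation and its cofactor held 4, with a median of −0.73. The 17 tested genes of branched-chain and propionate breakdown had a median of −0.09, and the 6 of lysine breakdown −0.02. Of 10 regulators 0 were called. Among them Klf15, a factor that drives amino acid breakdown in fasting, was at 106, 113 and 134 CPM in placebo and 129, 58.3 and 109.9 CPM in DHT, and Hnf4a, a master factor of the hepatocyte, at 483, 575 and 202 CPM and 555, 492 and 399 CPM. Both overlapped, and the lowest Klf15 was in DHT 2. Nr3c1, the glucocorticoid receptor, was at 95.7, 125 and 94.4 CPM in placebo and 84.8, 69.7 and 76.5 CPM in DHT, without overlap (−0.45 ± 0.24, edgeR adjusted p = 0.394). Cebpb, a factor of the liver's acute response, was at 145, 167 and 90.2 against 75.9, 93.6 and 64.8 CPM, with overlap (−0.78 ± 0.30, edgeR adjusted p = 0.267). Without placebo 3, Cebpb, Ppargc1a and Foxo1, the last 2 regulators of gluconeogenesis, were called lower (edgeR adjusted p = 0.0389, 0.0341 and 0.0130, highest over the alternatives 0.617, 0.661 and 0.682).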

How the data were processed

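Liver RNA was sequenced in 6 libraries, 3 per group, as the labels group them. The authors deposited raw gene counts, 1 table per library; per the submitters' processing notes the build was GRCm38 and the tools included featureCounts, Subread 1.5.2, STAR 2.5.2b and Trimmomatic 0.36. The sources used here give neither the strand setting nor how multi-mapping reads and read pairs were treated, and the kit that the labels name does not mark strand. Exons overlap those of another counted gene over 61.7% of their length in Bckdha, 32.5% in Aldh4a1, 29.6% in Sds, 15.6% in Nags and 8.3% in Gstz1, and less in the other members, so those counts are uncertain.

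The comparison, DHT minus placebo, was fitted over all genes with edgeR 4.0.16 in R 4.3.3: filterByExpr by group, TMM scaling, quasi-likelihood test with robust empirical Bayes, no covariate, Benjamini-Hochberg adjustment over 15126 genes, called under 0.05. CPM are TMM-scaled, TPM use the exon lengths in the tables, and the SE is the log2 fold change divided by the square root of F. 3 counts were 0.0498 to 0.0726 CPM in 1 library. No 2 libraries of a group agreed within sampling noise (lowest chi-square per degree of freedom 103.9). Tests were also run on simulated counts with the same dispersion, 0.05, for all genes and no pairing. That setting is simpler than these data, so the run does not vouch for the calls here. DESeq2 1.42.0, limma 3.58.1 and the other alternatives are under sensitivity.

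Replicate numbers come from the titles, which name no shared litter or batch. Deviations from group means correlated at 0.25, 0.15 and 0.60 for numbers 1, 2 and 3, all over 0.1, and a block on the number was therefore fitted. However, placebo 2 with DHT 1 (0.44) and placebo 1 with DHT 2 (0.29) correlated more than numbers 1 and 2 did. Deviations within a group of 3 sum to 0, so these correlations are tied together. The pairing is not established, and blocked values are given only as an alternative. Blocked values stand beside results they change.

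Genes and lists were chosen with earlier results of these data known. Given in full were members with an unadjusted p under 0.05 and the one with the smallest p in each amino acid group, 18 in all, and of the second list the called genes and the 8 with the smallest p, of which 1 is not reported here. Promoter sequences are RefSeq's. No set test or chance test over the list was made.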

Additional observations from a re-analysis of the deposited data

How the results depend on the processing

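The 416 single-gene values under the alternatives cover only the genes chosen by p-value, for which a change of sign was unlikely. Of these values, 362 kept direction and side of the threshold, 50 newly passed and 0 turned sign. The 4 that lost their call were of Slc43a1 in fits without 1 library. Other genes of the list did turn sign, among them Nags in 6 of 16 alternatives and Gpt2 in 4. Genes of the list called (0 in all) numbered 2 with library size alone, 1 with no low-count filter, 9 with the replicate block, 6 with DESeq2, 2 with limma voom and 1 without both libraries numbered 3, a setting chosen after seeing the data. Of these, 2, 1, 2, 2, 2 and 1 were higher and 7 (block) and 4 (DESeq2) were lower. Leaving out 1 library gave 0 to 5, with 0 to 3 higher and 0 to 2 lower, all from the fit without placebo 3. Second-list calls (2 in all, 1 higher, 1 lower) were 12 with the block (3 and 9), 10 with DESeq2 (2 and 8), 8 with limma voom (3 and 5) and 6 without both libraries numbered 3 (5 lower), and 2 were lower with no low-count filter. Leaving out 1 library gave 1 to 12, with 0 to 11 lower. Calls over all genes (250, 144 higher, 106 lower) were 521 (290 and 231) with no low-count filter, 1621 (823 and 798) with the block, 1062 (498 and 564) with DESeq2, 707 (368 and 339) with limma voom and 448 (266 and 182) without both libraries numbered 3. Leaving out 1 library gave 84 to 862, with 44 to 425 higher and 32 to 437 lower. Library size alone gave 207 higher and 89 lower. The groups did not overlap in 9 lower genes with library size alone, against 14. On leaving out 1 library they did not overlap in 14 to 19 lower genes (12.9 to 20.1% of all genes) and in 4 to 8 higher ones (14.9 to 22.1%). Without DHT 2 these were 14 (13.5%) and 8 (15.1%). The log2 ratio of summed TPM, −0.31, moved by less than the spread between libraries in each alternative. That spread was wide, with summed TPM of 30296 to 38914 in placebo and 21172 to 32649 in DHT. The rule therefore does not show that the ratio was steady. Among the genes given in full, the block changed no call beyond those printed with it.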

Other observations

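Zonal marker genes outside the list were split. Of 8 periportal genes, the zone in which the urea cycle is strongest, 0 were called and 7 had a negative log2 fold change. Hsd17b6 had 281 ± 113 CPM in placebo and 83.2 ± 19.8 CPM in DHT libraries (log2 fold change −1.75 ± 0.37, edgeR adjusted p = 0.0669) and Ctsc 154 ± 9.67 against 78.7 ± 20.9 CPM (−0.97 ± 0.27, edgeR adjusted p = 0.145, SD, n = 3 each), both without overlap. Pck1, the gluconeogenic enzyme gene, had 3160.2, 3042 and 1169 CPM in placebo and 1809, 450.5 and 723 CPM in DHT, with overlap. Summed TPM of the 8 was 2043 to 4996 in placebo and 2073 to 3617 in DHT, so the groups overlapped. With the replicate block, 3 of the 8 were called lower (5.28% of all genes). These were Hsd17b6, Ctsc and Pck1 (edgeR adjusted p = 2e-05, 0.0109 and 0.0129, highest over the alternatives 0.267, 0.493 and 0.668).

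Of 10 pericentral genes 0 were called, 5 with a positive and 5 with a negative log2 fold change. Axin2 (2.27 ± 0.665 against 4.65 ± 1.45 CPM) and Lgr5 (3.53 ± 1.10 against 6.00 ± 0.616 CPM) were higher in every DHT library (edgeR adjusted p = 0.235 and 0.273). Cyp1a2 (702 ± 491 against 185 ± 18.6 CPM) was lower in every one (edgeR adjusted p = 0.100). Summed TPM was 5970 to 14340 in placebo and 7871 to 9977 in DHT, with overlap. With the replicate block, 2 of the 10 were called higher (5.44% of all genes) and 1 lower (5.28%). These were Axin2 and Tbx3, higher, and Cyp1a2, lower (edgeR adjusted p = 0.0364, 0.0137 and 0.000595, highest over the alternatives 0.602, 0.617 and 0.341). Whether these zonal genes bear on the urea cycle values was not tested.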
